A study of Mus musculus with 4 samples.

Results

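The transcripts examined here are those of 10 platelet and megakaryocyte genes, namely Pf4, Ppbp, Gp9, Gp1bb, Gp1ba, Itga2b, Tubb1, Gp6, Clec1b and Treml1. They were found by symbol in the feature lists of both libraries, and all 10 matched 1 gene each among 32285 genes. The libraries were made by CITE-seq, in which an oligonucleotide-tagged CD24 antibody is counted in unique molecular identifiers (UMIs) beside the mRNA of the same droplet. They came from 1 young (6 months) and 1 old (24 months) INK-ATTAC mouse, neither of which was treated. INK-ATTAC mice carry an inducible caspase 8 transgene under the p16Ink4a promoter, and both animals carried it. Digested bone and marrow of femur and tibia had been depleted of cells with blood lineage antigens and sorted for live CD45- cells. The label calls the sorted cells mesenchymal, whereas erythroid, neutrophil, B lineage and megakaryocyte marker genes were found in some of them. Because each age is 1 mouse, age, animal and library cannot be told apart.

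Megakaryocytes are the large marrow cells that shed platelets, and their maturation switches on a set of genes whose products act on the platelet surface or are stored in its granules. Pf4 and Ppbp encode chemokines of the alpha granules. Gp1ba, Gp1bb and Gp9 encode subunits of the receptor for von Willebrand factor, Itga2b encodes the CD41 integrin chain that pairs with the Itgb3 product to bind fibrinogen, Gp6 encodes a collagen receptor, and Clec1b encodes the receptor for podoplanin. Treml1 encodes a membrane protein stored in the alpha granules, and Tubb1 encodes the beta tubulin of the platelet's microtubule coil.

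The sequences around the start sites of the most abundant of these transcripts and of both that were also found in other classes of cells are shown from RefSeq (GRCm38.p6), 250 bases before to 50 after the start, 5′ to 3′ on the gene's own strand. Capitals mark short words searched on both strands. The GATA words are AGATAA and, as a further spelling, TGATAA, together with AGATAG and its variant TGATAG. The ETS words are AGGAAG and the alternative form CGGAAG. Words of both kinds were searched separately. All 10 genes had an entry. The Gp9 window lies inside the annotated span of its gene, at the start of the transcript the table uses.
Pf4 (chr5:90772185-90772484, plus strand): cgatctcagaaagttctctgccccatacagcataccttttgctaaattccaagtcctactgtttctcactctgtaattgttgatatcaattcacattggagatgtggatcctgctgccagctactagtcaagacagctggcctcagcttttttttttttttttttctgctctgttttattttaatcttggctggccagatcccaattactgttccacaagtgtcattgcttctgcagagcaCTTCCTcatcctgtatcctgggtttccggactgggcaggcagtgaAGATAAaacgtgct
Gp9 (chr6:87777820-87778119, plus strand): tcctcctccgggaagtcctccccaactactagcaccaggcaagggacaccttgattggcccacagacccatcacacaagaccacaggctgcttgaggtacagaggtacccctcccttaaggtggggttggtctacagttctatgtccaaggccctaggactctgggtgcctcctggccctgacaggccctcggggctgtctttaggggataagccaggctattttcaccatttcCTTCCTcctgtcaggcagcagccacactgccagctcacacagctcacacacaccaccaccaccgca
Itga2b (chr11:102469834-102470133, minus strand): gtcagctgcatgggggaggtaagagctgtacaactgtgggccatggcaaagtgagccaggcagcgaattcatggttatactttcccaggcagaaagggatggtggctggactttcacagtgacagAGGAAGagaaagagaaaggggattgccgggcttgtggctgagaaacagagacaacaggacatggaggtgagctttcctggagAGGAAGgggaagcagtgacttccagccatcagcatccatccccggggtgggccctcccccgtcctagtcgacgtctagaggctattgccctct
The Pf4 window held 1 GATA and 1 ETS match, the Gp9 window 1 ETS match, and the Itga2b window 2 ETS matches and no GATA letters. Over the 10 genes, Gp1ba had 3 GATA matches and 1 ETS match, Clec1b had 2 GATA matches, Gp6 had 1 GATA match, Gp1bb had 1 GATA and 2 ETS matches, Tubb1 had 1 ETS match, and the windows of Ppbp and Treml1 had neither. Among 32817 windows of the same length, 29.8% held GATA letters and 46.5% held ETS letters. Pf4 and Ppbp lie on chromosome 5 with 2371 bases between them. Gp1bb overlaps Septin5, Clec1b overlaps Clec12b and Gp1ba ends 32 bases from Slc25a11, so UMIs of these 3 genes are less certain, since the strand setting of the counting is not given in the sources used here. No gene overlaps Itga2b, Gp9, Pf4 or Ppbp in that annotation.

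The kept barcodes, with at least 200 genes and at most 20% mitochondrial UMIs, numbered 10063 of 11371 in the young and 5607 of 6729 in the old library. They held 81076421 and 66702846 RNA UMIs, with medians of 6385 and 9711 per barcode, and 25 barcode sequences occurred in both libraries. The 10 genes together took 0.0681% (young) and 0.0814% (old) of these RNA UMIs. A UMI in a 3′ library counts the end of a transcript, and levels are given in CPM, the UMIs of a gene scaled to the summed RNA UMIs of the barcodes named. Intervals are exact at 95% and cover counting error only.

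Both chemokine genes together gave most of the UMIs. Pf4 had 35036 UMIs in the young library (432 CPM, interval 428 to 437) and 34959 in the old library (524 CPM, 519 to 530). Ppbp had 11820 UMIs (146 CPM) and 11568 UMIs (173 CPM). Of the von Willebrand factor receptor genes, Gp9 had 2262 and 1994 UMIs, Gp1bb 849 and 998, and Gp1ba 179 and 211. The receptor Clec1b had 2384 and 2072 UMIs, Treml1 945 and 900, Gp6 301 and 332, and Tubb1 only 72 and 80. Itga2b had 1359 UMIs in 889 young and 1182 UMIs in 627 old barcodes, the largest number of barcodes of any of the 10 genes in both libraries, against 577 and 463 barcodes for Pf4.

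The number of these genes found in a single barcode split the barcodes into those with very few and those with most of them. In the young library 8404 barcodes had none, 1423 had 1, 143 had 2 and 14 had 3, while 26 had all 10. In the old library 4341 barcodes had none, 1065 had 1, 127 had 2 and 18 had 3, and 19 had all 10. At least 5 genes were found in 74 young (0.735%, 0.578 to 0.922) and 54 old (0.963%, 0.724 to 1.25) barcodes. Those near this limit were few, with 5 young and 2 old barcodes at 4 genes and 3 young and no old barcodes at 5 genes. The barcodes at or above the limit held 96.0% of the UMIs of the 10 genes in the young and 96.4% in the old library.

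**Figure D1:**
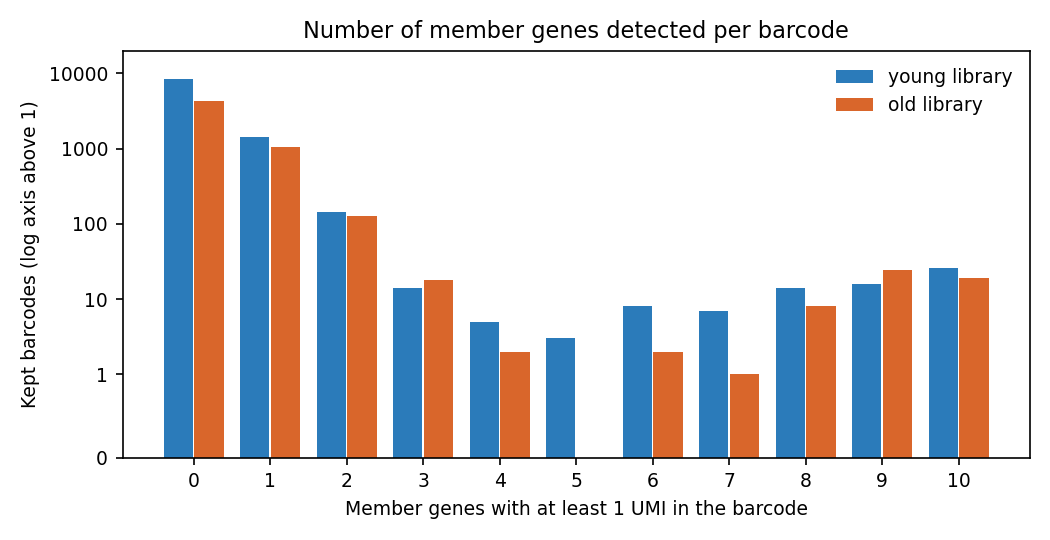
Number of kept barcodes (log axis above 1) in which 0 to 10 of the genes had at least 1 UMI, for the young and the old library. Counts fall from 8404 and 4341 barcodes with none of the genes to 3 and 0 with 5, and are higher again at 9 genes (16 and 24) and at 10 (26 and 19).

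Itga2b was the exception to this co-detection. Of its UMIs, 23.5% (young) and 32.3% (old) lay in barcodes with at least 5 of the genes, against 98.1% and 98.0% for Pf4, 98.0% and 98.4% for Ppbp and 99.0% and 98.2% for Gp6. Gp9 stood at 95.2% and 92.0% and Gp1ba at 88.3% and 90.5%. Where a single gene of the 10 was found in a barcode, it was Itga2b in 735 of 1423 young and 484 of 1065 old barcodes, and Pf4 in 388 and 312. Of the barcodes with a Gp1ba UMI, 73.5% in the young and 70.5% in the old library also had a UMI of Gp1bb. The Gp1bb product joins the same receptor, and 80.9% and 73.8% had a UMI of Gp9. Genes outside this receptor ranged from Tubb1 (41.2% and 31.1%) to Pf4 (76.5% and 78.7%). Shares of this size were thus not particular to the receptor. Among barcodes with fewer than 5 of the genes, 18 young and 17 old had a Gp1ba UMI. Of these, 0 and 0 also had a UMI of Gp1bb, and 6 and 1 had a UMI of Gp9. Across kept barcodes, the correlation (Pearson's r of log values) of each gene with the summed other genes was 0.258 (young) and 0.433 (old) for Itga2b, and 0.765 and 0.823 for Clec1b. These correlations share each barcode's depth and are a description.

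Clusters were made with the 10 genes removed from the expression matrix. In a single cluster of 69 young and 53 old barcodes 11 of 12 other megakaryocyte markers were raised, and it is called megakaryocyte-like. Its leading genes were F2rl2, Tesc, Bin2, Rgs18, Lat and Nrgn. All 69 and all 53 of its barcodes had at least 5 of the 10 genes. The remaining 5 young and 1 old barcodes with at least 5 genes were in the mesenchymal classes, which here are the stromal-, fibroblast-, osteoblast-, tendon-, chondrocyte- and pericyte-like clusters. The class made up 0.686% (0.534 to 0.867) of the kept young and 0.945% (0.709 to 1.23) of the kept old barcodes, and these intervals overlap. Depletion and sort set which blood cells remain, so the shares describe sorted cells.

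Within the megakaryocyte-like barcodes the granule chemokines were found in every barcode. Pf4 ranged from 8 to 2114 UMIs with a median of 370 in the young library, and from 5 to 3922 with a median of 385 in the old library. Ppbp ranged from 1 to 594 UMIs, median 154, and from 10 to 1285, median 145. A single old barcode thus carried 3922 of the 34190 Pf4 UMIs of its class. The receptor genes Gp9 (68 of 69 young and 53 of 53 old barcodes), Gp1bb (69 and 52) and Clec1b (68 and 53) were found in nearly all, and Treml1 in 66 and 52. Gp6 was found in 59 and 49, Gp1ba in 49 and 43 and Itga2b in 51 and 50. Tubb1 was found in 32 of 69 and 25 of 53 barcodes, with a median of 0 UMIs and at most 10 and 11.

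The barcodes rich in these genes also differed from the others in mitochondrial share and in Malat1. Barcodes with at least 5 of the genes had a median mitochondrial share of 0.0352% in the young and 0.0982% in the old library, against 2.78% and 2.61% in all others. Malat1, a long noncoding RNA kept in the nucleus, took a median of 0.0129% and 0.0146% of their UMIs, against 4.12% and 3.93% in the others. Their depth was not low, with medians of 10976 and 11242 UMIs against 6363 and 9695. Split after the values were seen, 52 of 74 young and 32 of 54 old barcodes had under 0.2% mitochondrial UMIs, and in these Malat1 stood at 464 and 148 CPM. In the 14 young and 10 old barcodes with 1% or more, Malat1 stood at 27000 and 15838 CPM, and the collagen gene Col1a1 at 2124 and 177 CPM against 22.9 and 45.7 CPM. The 135 young and 146 old other barcodes under 0.2%, which were shallower (medians of 1681 and 3317 UMIs), had Malat1 at 16445 and 16008 CPM. Scrublet called 5 of the 74 and 3 of the 54 as doublets, and all 5 young ones had 1% or more mitochondrial UMIs. Whether these barcodes hold nucleated cells, platelets or platelets on other cells was not tested.

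**Figure D2:**
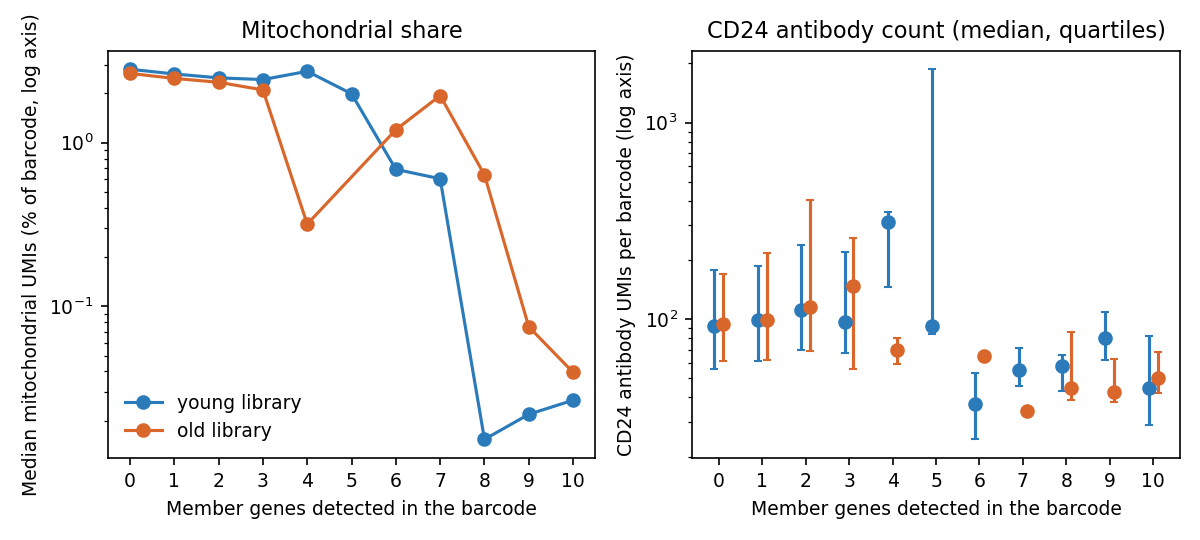
Median mitochondrial share of UMIs (left, log axis) and median CD24 antibody count with its quartiles (right, log axis) by the number of the 10 genes found in a barcode, young and old library. The mitochondrial median falls from 2.81% and 2.65% with none of the genes to 0.0267% and 0.0395% with all 10, and antibody medians are under 100 from 6 genes upward; groups of 4 to 7 genes hold 8 barcodes or fewer.

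On a list of 40 other genes of platelets and megakaryocytes, 34 had a higher CPM in the megakaryocyte-like barcodes than in all others in both libraries, and 23 were at least 10-fold higher in both. In 14 of the 40, at least 50% of all UMIs lay in the class in both libraries. The share of all genes that meet these limits was not counted, so these counts describe the list alone. The thrombin receptor cofactor F2rl2 stood at 530 and 567 CPM in the class against 0.238 and 0.29 CPM outside it. Vwf, which endothelial cells share, stood at 44.0 and 69.5 CPM against 1.70 and 2.07 CPM. Pdpn, whose product binds the Clec1b receptor, stood at 5.28 and 0.902 CPM against 82.3 and 54.3 CPM outside it. Among 15431 genes ranked by the lower of both libraries' correlations with the summed 10 genes over kept barcodes, the most alike were F2rl2 (0.762), Lat (0.693), Ly6g6f (0.688), Cd226 (0.682), Capn3 (0.680), Ctla2b (0.674), Dok2 (0.663), Gcsam (0.649), Tmem40 (0.649) and P2rx1 (0.632). Lat encodes an adaptor of immunoreceptor signalling and P2rx1 an ATP-gated channel of platelets, and 3 of these 10 genes were on the list of 40.

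Outside the class, low counts of Pf4 and Ppbp were found in nearly every kind of cell. In the mesenchymal classes (7582 young and 3886 old barcodes), Pf4 stood at 11.6 CPM (10.7 to 12.5) and 9.87 CPM (8.97 to 10.8), and Ppbp at 4.25 and 3.18 CPM. These classes include the 5 young and 1 old barcodes with at least 5 of the genes. Up to 47 and 68 Pf4 UMIs lay in a single mesenchymal barcode, and the old barcode with 68 had fewer than 5 of the genes. In blood classes that should lack Pf4, it stood at 10.4 CPM (5.56 to 17.9) and 7.82 CPM (4.47 to 12.7) in neutrophil-like barcodes, at 5.93 CPM (3.97 to 8.51) and 3.8 CPM (2.41 to 5.70) in erythroid-like barcodes, and at 3.12 and 3.45 CPM in B lineage-like barcodes. The mesenchymal interval overlapped the neutrophil-like interval in both libraries and lay above the erythroid-like interval in both. The B lineage-like values, from 7 and 6 UMIs, also lay below the mesenchymal interval. Without the barcodes with at least 5 of the genes, a setting added after seeing the data, Pf4 stood at 8.92 CPM (8.15 to 9.75) and 8.63 CPM (7.79 to 9.54) in the mesenchymal classes, which overlaps the erythroid-like interval in the young and lies above it in the old library. The old value still holds the barcode with 68 Pf4 UMIs, among 383 in all. A Pf4 UMI was found in 5.06% of young and 7.59% of old mesenchymal barcodes (median depths 6346 and 10156 UMIs), against 8.78% and 6.89% of erythroid-like barcodes (11545 and 14873 UMIs) and 4.63% and 4.40% of neutrophil-like barcodes (2929 and 3962 UMIs). After thinning to 2000 UMIs per barcode, the shares were 1.73% and 1.62% in mesenchymal, 1.03% and 1.00% in erythroid-like and 2.16% and 1.23% in neutrophil-like barcodes. The pooled mesenchymal level is a mix. Over both libraries its clusters ran from 3.37 CPM of Pf4 in the one led by Bglap, Car3 and Ifitm5 to 28.6 CPM in another osteoblast-like cluster. That cluster was led by Bmp8a, Alpl and Ptprz1, and the difference was not tested. No expression of Pf4 in mesenchymal cells is read from shares and levels of this size.

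**Figure D3:**
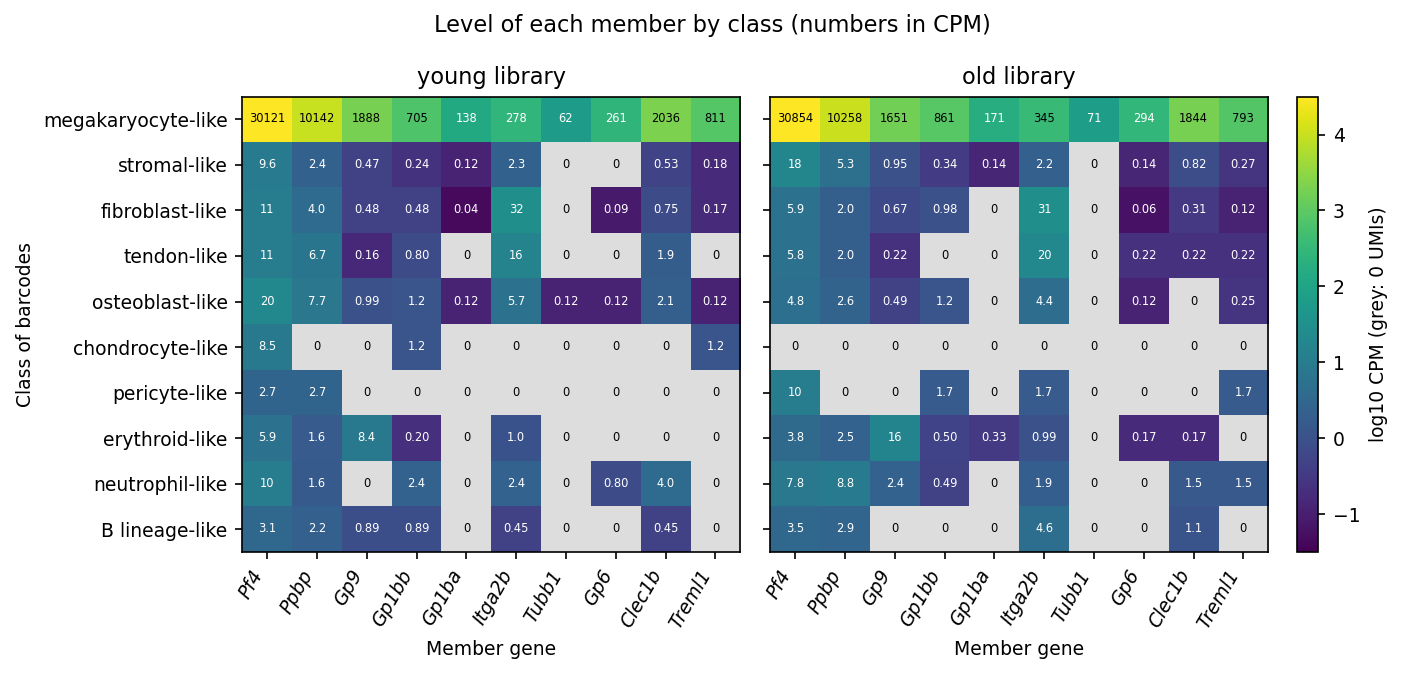
Level of each of the 10 genes (columns, CPM printed in each cell, colour on a log10 scale, grey where no UMI was found) in 10 classes of barcodes (rows) of the young and the old library. Every gene is highest in the megakaryocyte-like row, Pf4 at 30121 and 30854 CPM, and the cells that stand out below it are Itga2b in fibroblast- and tendon-like and Gp9 in erythroid-like barcodes.

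The proportions of the genes to Pf4 were compared between the mesenchymal and the megakaryocyte-like classes. For each 100 Pf4 UMIs, the megakaryocyte-like barcodes held 33.7 (young) and 33.2 (old) Ppbp UMIs, and the mesenchymal classes held 36.7 (31.5 to 42.7) and 32.2 (26.4 to 39.0). Clec1b stood at 6.76 and 5.98 per 100 Pf4 UMIs in the former and at 8.59 (6.40 to 11.3) and 4.11 (2.41 to 6.57) in the latter, and Gp9 at 6.27 and 5.35 against 4.38 and 6.85. Gp1bb was higher in the mesenchymal classes than in the megakaryocyte-like class, at 4.84 (3.26 to 6.94) and 7.31 (4.94 to 10.5) against 2.34 (2.18 to 2.51) and 2.79 (2.61 to 2.98). Itga2b stood at 0.923 and 1.12 UMIs per 100 Pf4 UMIs in the megakaryocyte-like class and at 141 and 152 in the mesenchymal classes. Gp6 stood at 0.469 and 1.14 in the mesenchymal against 0.868 and 0.953 in the megakaryocyte-like class and Treml1 at 1.41 and 2.28 against 2.69 and 2.57, from 3 and 5 and from 9 and 10 mesenchymal UMIs. The Gp6 intervals and the old Treml1 interval include the megakaryocyte-like values, and the young Treml1 interval (0.64 to 2.69) overlaps that of the megakaryocyte-like class (2.52 to 2.88). The mesenchymal values above include the 5 young and 1 old barcodes with at least 5 of the genes. Without these barcodes, a setting added after seeing the data, Ppbp stood at 36.7 and 33.4 and Clec1b at 8.11 and 3.92. Gp1bb then stood at 5.27 and 8.36 and Itga2b at 182 and 174. The old values still hold the old mesenchymal barcode with the most Pf4 UMIs, which had fewer than 5 of the genes. Some single classes departed from the pooled values. In young tendon-like barcodes Ppbp stood at 61.8 (41.0 to 92.1) and Clec1b at 17.6 (8.69 to 32.9), in old neutrophil-like barcodes Ppbp at 112 (54.2 to 236) and in old fibroblast-like barcodes Gp9 at 11.5 (5.54 to 21.4). Gp1bb, which overlaps Septin5, stood at 25.6 (11.4 to 52.3) in old osteoblast-like and 16.7 (9.16 to 28.5) in old fibroblast-like barcodes. In old stromal-like barcodes it stood at 1.85 (0.594 to 4.36). Tubb1 had 1 and 0 mesenchymal UMIs, and at 0 UMIs the 3886 old barcodes allow a Tubb1 level of up to 0.0676 CPM.

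Itga2b differed from the rest in fibroblast-like barcodes. It stood at 31.5 CPM (29.2 to 33.9; 718 UMIs) in the 2721 young and 31.1 CPM (28.5 to 33.9; 509 UMIs) in the 1257 old fibroblast-like barcodes. Tendon-like barcodes followed at 15.6 CPM (12.6 to 19.0) and 19.5 CPM (15.6 to 24.1), and osteoblast-like barcodes at 5.72 CPM (4.19 to 7.63) and 4.43 CPM (3.10 to 6.13). Stromal-like barcodes stood at 2.30 CPM (1.63 to 3.14) and 2.18 CPM (1.49 to 3.07), which overlaps the erythroid-like level of 1.02 CPM (0.332 to 2.38) and 0.991 CPM (0.364 to 2.16). The stromal-like value is a mix, as its cluster led by Cxcl5, Kit and Cxcl14 stood at 9.42 CPM (6.15 to 13.8) and 5.87 CPM (3.29 to 9.68), against 0.675 and 1.62 CPM in the largest stromal-like cluster. The osteoblast-like value is also a mix. Its cluster led by Bglap, Car3 and Ifitm5 stood at 0.259 CPM over both libraries, against 6.7 and 6.51 CPM in its other clusters. As pooled classes, the Itga2b intervals of fibroblast-, tendon- and osteoblast-like barcodes overlap neither each other nor the stromal-like interval in either library. All 4 fibroblast-like clusters carried it, at 27.9 to 33.5 CPM in the young and 27.4 to 33.9 CPM in the old library, and so did an unnamed cluster led by Htra4, Clic5, F13a1 and Prg4, of which F13a1 is also on the list of 40, at 26.6 and 29.1 CPM.

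The fibroblast-like signal was spread thinly over many barcodes. An Itga2b UMI was found in 564 of 2721 young barcodes (20.7%, median depth 7513 UMIs) and 343 of 1257 old barcodes (27.3%, median depth 12284 UMIs), with at most 5 and 8 UMIs in any. In erythroid-like barcodes of greater depth (11545 and 14873 UMIs) the shares were 1.35% and 1.97%. At 2000 UMIs per barcode the fibroblast-like shares were 6.31% (5.42 to 7.30) and 5.63% (4.41 to 7.07), and the erythroid-like shares 0.344% and 0.669%. Per 100 Pf4 UMIs, fibroblast-like barcodes held 295 (255 to 343) and 530 (426 to 667) Itga2b UMIs. Its partner chain gene Itgb3 stood at 15.5 and 16.7 CPM over the mesenchymal classes and at 253 and 327 CPM in the megakaryocyte-like class. The Itga2b window printed above held no GATA letters, which says nothing of the factors that bind there.

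**Figure D4:**
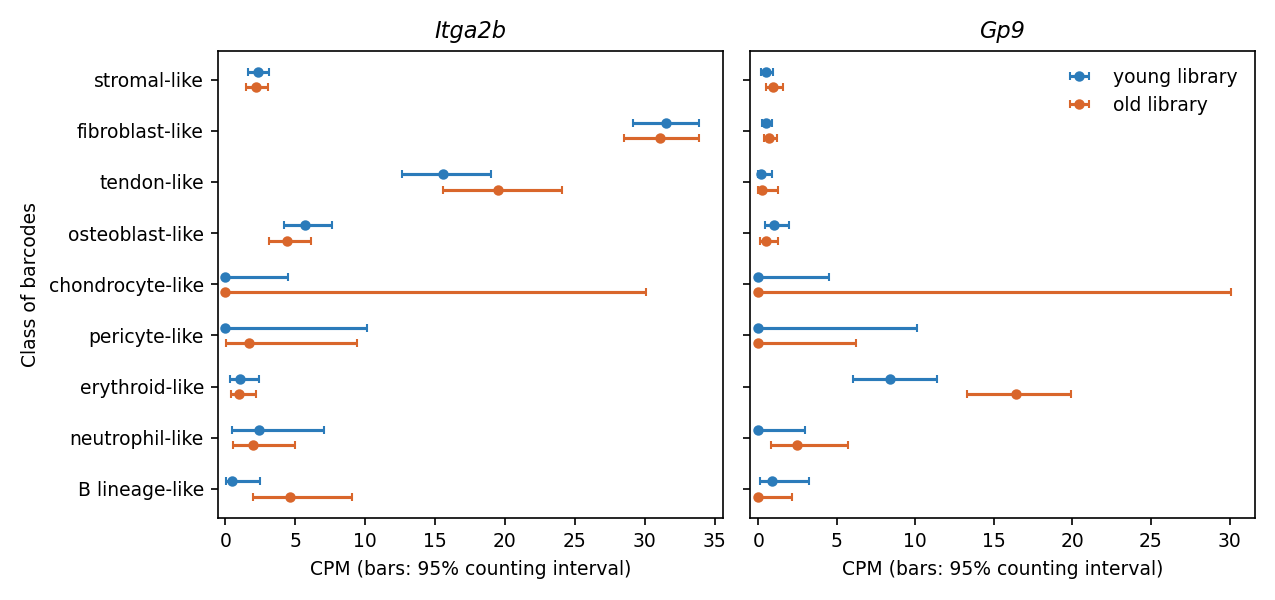
Level of Itga2b (left) and Gp9 (right) in CPM with 95% counting intervals in 9 classes of barcodes other than megakaryocyte-like, young and old library. The old chondrocyte-like interval is wide because it rests on 10 barcodes. Itga2b is highest in fibroblast-like (31.5 and 31.1 CPM) and tendon-like barcodes and Gp9 in erythroid-like barcodes (8.38 and 16.4 CPM).

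Gp9 showed a different exception, in erythroid-like barcodes. It stood at 8.38 CPM (6.01 to 11.4; 41 UMIs) in 296 young and 16.4 CPM (13.3 to 19.9; 99 UMIs) in 305 old barcodes, against 0.506 CPM (0.337 to 0.732) and 0.676 CPM (0.456 to 0.965) in the mesenchymal classes. A Gp9 UMI was found in 12.8% (9.25 to 17.2) and 23.6% (19.0 to 28.8) of erythroid-like barcodes, against 0.317% and 0.669% of mesenchymal barcodes at medians of 6346 and 10156 UMIs. Thinned to 2000 UMIs, the erythroid-like shares were 2 of 291 and 9 of 299 barcodes (0.687% and 3.01%), close to a level that few UMIs can resolve, and the mesenchymal shares were 0.0837% and 0.162%. The other receptor subunits were nearly lacking there, with 1 and 3 UMIs of Gp1bb and 0 and 2 of Gp1ba. The higher old level and the difference between 2 animals cannot be told apart.

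Gp1ba had few UMIs outside the megakaryocyte-like class, and most of these lay in an unnamed cluster, singled out after its values were seen. The cluster held 304 young and 140 old barcodes (median depths 25422 and 34839 UMIs) and was led by Gm15915, Myb, Car1, Sdsl, Frat2 and Gata2, the last a transcription factor of blood progenitors. Of 12 megakaryocyte markers, 4 were raised in it. It held 18 of the 21 young and 17 of the 20 old Gp1ba UMIs of barcodes with fewer than 5 of the genes, in 15 and 14 barcodes (2.06 CPM, 1.22 to 3.25, and 3.19 CPM, 1.86 to 5.10). Itga2b stood at 6.86 and 6.75 CPM there, Gp9 at 4.46 and 4.5 CPM and Treml1 at 1.03 and 1.31 CPM, and Gp6 and Tubb1 had no UMI, which allows up to 0.343 and 0.562 CPM.

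CD24 was measured on the same barcodes by the antibody, and the 10 genes were compared between CD24+ and CD24- barcodes. A barcode was CD24+ above the Otsu threshold of its library (319 and 410 antibody UMIs), which 1546 young and 741 old barcodes passed. Barcodes with at least 5 of the genes had a median antibody count of 56.0 UMIs (quartiles 37.0 to 83.8) in the young and 45.5 (38.2 to 66.0) in the old library, against 93.0 and 96.0 in the others. CD24+ were 1 of the 74 (1.35%, 0.0342 to 7.30) and 1 of the 54 (1.85%, 0.0469 to 9.89), against 15.5% and 13.3% of the others. The megakaryocyte-like class had the lowest median antibody count of the 10 named classes in both libraries, 56.0 and 45.0 UMIs, while the erythroid-like class stood at 3204 and 5023 UMIs.

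All 10 genes were lower in CD24+ barcodes. UMIs were summed per mouse and CD24 status and tested with edgeR with the mouse as a block, over 2 mice. Over all genes tested, 58.0% differed at an adjusted p under 0.05 and 29.3% were lower in CD24+, so that passing the test is frequent in this comparison. Pf4 had 168 young and 349 old UMIs in CD24+ (8.74 and 25.1 CPM) against 34868 and 34610 in CD24- barcodes (564 and 655 CPM), and the CD24+ level was below the CD24- level in both mice. Ppbp stood at 2.13 and 13.9 CPM against 190 and 215 CPM, Gp9 at 3.8 and 10.7 against 35.4 and 34.9 CPM, and Itga2b at 5.46 and 4.40 against 20.3 and 21.2 CPM. The log2 change of Pf4 was -5.07 (SE 0.27), that of Ppbp was -4.77 (SE 0.242), and the smallest changes were those of Gp9 (-2.15, SE 0.231) and Itga2b (-1.81, SE 0.248). Gp1bb, Gp6, Clec1b and Treml1 changed by -3.94, -4.63, -4.53 and -4.96, and Gp1ba by -2.57. For some genes the sizes differed between the mice by more than these standard errors, which rest on the spread pooled over all genes. Taken in each mouse on its own, with 0.5 CPM added and no test, the log2 change of Pf4 was -5.93 (young) and -4.68 (old), and Ppbp changed by -6.18 and -3.91, Clec1b by -5.68 and -3.43, and Gp9 by -3.06 and -1.66. With the CD24 threshold at the upper quartile, Pf4 changed by -3.97 and Treml1 by -3.75 in edgeR's fit, and all 10 genes were still lower. Adjusted p-values of edgeR's quasi-likelihood test ran from 2.36e-83 for Ppbp to 2.76e-07 for Gp1ba. Tubb1 had no UMI in either CD24+ sum against 72 and 80 in CD24- barcodes, so it was at least 7.44-fold lower in the young and at least 6.99-fold lower in the old library, against a floor of 3 UMIs per library. Gp6 had no UMI in the young CD24+ sum either, at least 31.2-fold lower. The median change of the 10 genes was -4.58, or -4.24 with Tubb1 at its bound, and that of all genes tested was -0.06. Of the list of 40, 39 were tested, 25 were lower and 7 higher in CD24+, with a median of -1.17, and without the megakaryocyte-like cluster 37 were tested, 14 were lower and 14 higher, with a median of -0.28.

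Most UMIs in this comparison lay in the megakaryocyte-like barcodes. They held 34198 of 34868 young and 33911 of 34610 old CD24- Pf4 UMIs, and 68 of 69 young and 52 of 53 old barcodes of the class were CD24-. The single old CD24+ barcode of the class held 279 of the 349 CD24+ Pf4 UMIs of its library, and the young one 32 of 168. With the class left out, an alternative added after seeing the data, 7 of the 10 genes had enough UMIs to be tested, of which 2 were lower and 1 was higher, against 29.3% of all genes lower and 28.6% higher in that fit (58.0% in either direction). The share of the genes that were lower is thus near the background. Pf4 changed by -0.75 (SE 0.255, edgeR adjusted p = 0.00842) and Itga2b by -1.5 (SE 0.257, adjusted p = 3.42e-07). Ppbp (-0.59), Clec1b (-1.05), Gp1bb (-0.04) and Treml1 (0.23) did not pass the test. Gp9 turned to an increase of 2.72 (SE 0.377, adjusted p = 8.13e-10), and of its CD24+ UMIs 41 of 73 in the young and 99 of 149 in the old library lay in erythroid-like barcodes. The 296 young and 304 of the 305 old erythroid-like barcodes were CD24+. In fibroblast-like barcodes Itga2b stood at 19.4 CPM in 105 CD24+ and 32.2 CPM in 2616 CD24- young barcodes, and at 31.3 CPM in 36 and 31.1 CPM in 1221 old barcodes, so the lower CD24+ level was seen in the young library only, with 23 and 19 CD24+ UMIs; this difference was not tested.

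**Figure D5:**
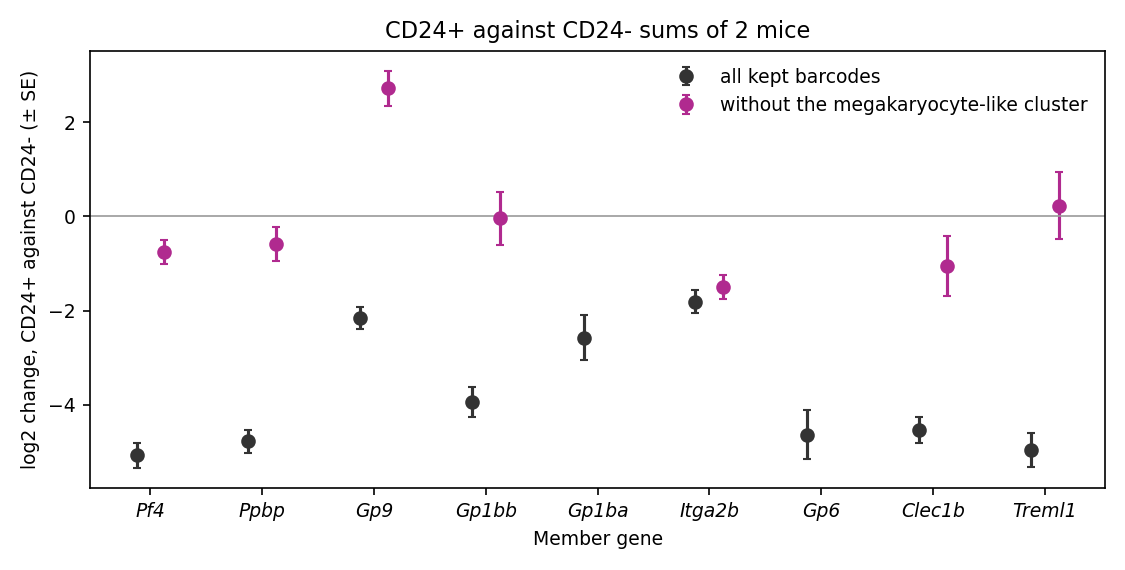
Log2 change of 9 of the genes between CD24+ and CD24- sums of 2 mice, with the standard error of edgeR's fit, over all kept barcodes (black) and without the megakaryocyte-like cluster (purple). All black points lie below 0, from -5.07 for Pf4 to -1.81 for Itga2b; without the cluster Gp9 lies at 2.72 and Gp1ba and Gp6 were not tested. Tubb1, with no UMI in CD24+ barcodes, is not drawn.

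The young and the old library were compared over all kept barcodes, within the megakaryocyte-like class and within the mesenchymal classes. The summed level of the 10 genes over all kept barcodes was 681 CPM in the young and 814 CPM in the old library, an old to young ratio of 1.2 (1.18 to 1.21). Within the megakaryocyte-like class it was 46445 and 47142 CPM, a ratio of 1.02 (1.00 to 1.03). Pf4 stood at 30121 and 30854 CPM (ratio 1.02, 1.01 to 1.04) and Ppbp at 10142 and 10258 CPM (1.01, 0.99 to 1.04). Gp9 had a ratio of 0.87 (0.82 to 0.93) and Clec1b of 0.91 (0.85 to 0.96), while Gp1bb had 1.22 (1.11 to 1.34) and Itga2b 1.24 (1.07 to 1.44). Gp1ba had a ratio of 1.24 with an interval that starts at 1.00, and the intervals of Treml1, Gp6, Tubb1 and Ppbp include 1. In the mesenchymal classes the ratio of the 10 genes was 0.88 (0.82 to 0.94), that of Pf4 0.85 (0.75 to 0.96) and that of Clec1b 0.41 (0.23 to 0.71). Without the mesenchymal barcodes with at least 5 of the genes these ratios were 0.94 (0.87 to 1.01), 0.97 (0.84 to 1.11) and 0.47 (0.24 to 0.86). With 1 mouse per age there is no replicate check and no test of these ratios, and a few barcodes held much of each sum.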

How the data were processed

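RNA and the CD24 antibody (TotalSeq-B) were measured in the same droplets of 1 young and 1 old mouse. The authors deposited filtered matrices of raw UMI counts per gene and barcode, with no normalization. The file header names Cell Ranger 6.1.1 and the submitters' processing notes name mm10, R 4.0.3 and Seurat 4.0. The strand setting is not given in the sources used here. The members and lists were chosen with earlier results of these data known.

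Barcodes with at least 200 genes and at most 20% mitochondrial UMIs were kept. Clusters were made with Seurat 5.3.0 and sctransform 0.4.2 (R 4.3.3; 3000 features, 30 components, resolution 0.8) without the 10 genes, and were named where at least 3 markers of a list were raised, unless another list had more markers among the top 10 genes or the cluster was shallow with no marker of its own list there. A cluster that passed this rule but was led by muscle and erythroid genes was left unnamed by hand. Doublets called by Scrublet (scanpy 1.11.5, seed 1) were kept in the main values. Shares were also computed after thinning to 2000 UMIs. Intervals are exact Poisson for counts and Clopper-Pearson for shares, at 95%, and floors are 3 UMIs. CD24+ was set by the Otsu threshold of the log antibody count in each library. UMIs summed per mouse and CD24 status were tested with edgeR 4.0.16 (quasi-likelihood, TMM, mouse as block, Benjamini-Hochberg over all genes). The 4 sums left 1 residual degree of freedom, so the spread was pooled over all genes, and p-values rest on that. Both sums of a block come from 1 animal. The script was tested on simulated counts. DESeq2 1.42.0 and other filters, thresholds and scalings were tried as alternatives. The named genes are the 10 members, those of the list of 40 that a result turns on, and the 10 genes most alike. Tables used Python 3.11.15, NumPy 2.4.6, SciPy 1.17.1 and pandas 2.3.3.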

Additional observations from a re-analysis of the deposited data

Results flagged for a closer look

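UMIs of the 10 genes were also found in barcodes that the filters left out, which no comparison uses. In the young library 245 such UMIs lay in 1308 barcodes, 89 of which had at least 1 of the genes. A single barcode held 143 of them, with 6 of the genes among 4339 RNA UMIs, 15357 antibody UMIs and 64.0% mitochondrial UMIs. In the old library 110 UMIs lay in 96 of 1122 barcodes, with at most 2 of the genes in any.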

How the results depend on the processing

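Over the alternatives to the main counts, summed levels, shares and medians, 48 values were scored as near the main value in size and 10 as moved. The 48 include DESeq2's 6949 genes called against 9401, and its 9 of the 10 genes called lower. Log2 changes and levels of single genes were scored apart. Of these, 175 stayed the same and 26 levels moved. A further 4 log2 changes kept their direction but did not pass the test, and 2 reversed. With the megakaryocyte-like cluster left out, an alternative added after seeing the data, the genes lower in CD24+ went from 10 to 2, Gp9 turned to 2.72 and Treml1 to 0.23 (log2). The summed level of the 10 genes was 681 CPM in the young library, against 671 over all deposited barcodes, 695 with at most 10% mitochondrial UMIs, 695 without doublets and 422 as a mean over barcodes. In the old library it was 814 CPM, against 793, 838 and 565 over all deposited barcodes, with at most 10% mitochondrial UMIs and as a mean over barcodes. The share of mesenchymal barcodes with any of the genes went from 16.2% and 22.3% to 5.42% and 4.93% at 2000 UMIs per barcode, and to 16.1% and 22.2% without the barcodes with at least 5 of the genes, added after seeing the data. DESeq2 called 6949 genes and 9 of the 10 (Tubb1 adjusted p = 0.182), and edgeR's newer dispersion method, also added after seeing the data, called 9509 and all 10.

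Without the mouse as a block, that is with no replicate block, 8146 genes were called against 9401, and all 10 genes were still lower. The block pairs the 2 sums of the same animal. No paired analysis of the ages was possible because each age is 1 mouse. One mouse per age, a sort that sets the share of blood cells, and few UMIs of Tubb1 and Gp1ba limit these values.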

Other observations

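Values of further barcodes were singled out after they were seen. An unnamed cluster of shallow barcodes, 117 young and 278 old with medians of 2189 and 1106 UMIs, was led by haemoglobin genes and by Pax7, Chodl and Des. Pf4 stood at 58.6 CPM (38.6 to 85.3) and 202 CPM (167 to 243) there, from 6 and 11 barcodes, with 22 of the 27 young and 55 of the 116 old UMIs in 1 barcode each. One old barcode of the cluster led by Myb and Gata2 held 96 Pf4 UMIs and no other of the 10 genes, among 8338 RNA UMIs, with 61 antibody UMIs and 0.024% mitochondrial UMIs, and it gave 96 of the 141 Pf4 UMIs of that cluster in the old library.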
